A study of Mus musculus with 28 samples.

Results

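H3K27ac regions of NMuMG cells that carried a peak before and 24 hours after TGF-β but had none after 24 hours of TGF-β in the presence of an inhibitor of ERK signalling are described here. Overlapping peaks of 15 libraries gave 89050 regions. The 784 regions described were chosen by their own calls, namely a peak in at least 2 of 3 libraries at 0h, in at least 2 of 3 at 24h and in 0 of 3 at ERKi 24h. They were 2.21% of the 35415 regions called at 0h and 24h. Since peak calls at 0h, 24h and ERKi 24h selected the regions, all values in these 9 libraries are a description. The 6 libraries at 4h and ERKi 4h took no part in the choice.

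NMuMG is a line of untransformed mouse mammary gland epithelial cells that undergoes epithelial to mesenchymal transition (EMT) on exposure to TGF-β. Cells were untreated at 0h, or received 2 ng/ml TGF-β for 4 h or 24 h with the solvent DMSO (4h and 24h) or with 25 µM UO126 added 30 min before TGF-β (ERKi 4h and ERKi 24h), with 3 replicate libraries per condition. All samples are of 1 cell line, and no library had the inhibitor without TGF-β, so an effect of the inhibitor on basal acetylation cannot be told apart from an effect on the response to TGF-β. In a bulk ChIP, fewer cells carrying the mark and less mark per cell cannot be told apart either.

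H3K27ac is acetylation of a lysine of histone H3, found at active promoters and enhancers. UO126 blocks MEK, the kinase that phosphorylates and activates ERK. Active ERK phosphorylates ETS and AP-1 transcription factors, and among the genes it induces are its own inhibitors, such as the Dusp phosphatases and the Sprouty and Spred adaptors. This negative feedback makes such genes common readouts of the activity of the pathway.

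The lists held between 50445 and 68050 peaks per library. Promoter peaks of the epithelial genes Cdh1, Krt8 and Krt18 were called in all 15 libraries, whereas Epcam had none, and Cldn3 was called in 1 and Cldn7 in 10. The haematopoietic genes Ptprc and Cd3e and the endothelial genes Pecam1 and Cdh5 had none, while the haematopoietic gene Csf1r was called in 3. Of the fibroblast genes, Lum had none, Pdgfra was called in 3 and Dpt in 15. In the peak names, 1 library, ERKi 4h replicate 1, bears a number out of the order of the others, and the counts over the regions at 4 hours are also given without it.

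Sequences of 200 bases around the summit are shown for 6 of the regions. In 3 of them, near Csf2, Rgnef and Ifltd1, capitals mark the ETS sequence CAGGAAGT or CCGGAAGT (or its complement) or the AP-1 sequence TGACTCA (or its complement), the letters read by the factors that ERK phosphorylates. The region near Errfi1 is the widest of the 784, with a match to the NFI motif in capitals. The regions near D15Ertd621e and Scn2a1 had the highest level among those called in all libraries without inhibitor and in no ERKi library and lying over 1000 bp from any ERKi 24h peak. The E-box CACCTG is in capitals in the first of these, and none of the 19 motifs searched was in the second. Coordinates are of the plus strand of mm9, and none of these windows overlaps an annotated exon.
Csf2, chr11:54050238-54050437: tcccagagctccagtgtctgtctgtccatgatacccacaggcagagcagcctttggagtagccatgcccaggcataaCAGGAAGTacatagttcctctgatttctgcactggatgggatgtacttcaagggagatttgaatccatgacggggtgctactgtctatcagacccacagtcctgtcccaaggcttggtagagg
Rgnef, chr13:98807249-98807448: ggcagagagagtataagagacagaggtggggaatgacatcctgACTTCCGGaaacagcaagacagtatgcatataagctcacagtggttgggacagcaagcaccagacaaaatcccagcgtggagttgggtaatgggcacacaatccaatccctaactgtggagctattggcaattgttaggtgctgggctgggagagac
Ifltd1, chr6:145447816-145448015: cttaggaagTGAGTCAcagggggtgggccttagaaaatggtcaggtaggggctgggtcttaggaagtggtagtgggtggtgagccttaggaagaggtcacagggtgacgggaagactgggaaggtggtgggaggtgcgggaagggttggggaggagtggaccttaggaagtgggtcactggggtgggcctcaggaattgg
Errfi1, chr4:150155140-150155339: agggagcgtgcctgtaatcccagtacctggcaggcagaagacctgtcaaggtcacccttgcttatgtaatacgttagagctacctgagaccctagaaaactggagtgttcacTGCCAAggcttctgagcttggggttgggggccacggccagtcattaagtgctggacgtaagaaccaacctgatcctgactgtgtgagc
D15Ertd621e, chr15:58241248-58241447: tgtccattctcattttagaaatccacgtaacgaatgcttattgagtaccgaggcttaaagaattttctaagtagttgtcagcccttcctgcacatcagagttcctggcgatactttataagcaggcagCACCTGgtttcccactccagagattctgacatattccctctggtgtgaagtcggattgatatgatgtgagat
Scn2a1, chr2:65583342-65583541: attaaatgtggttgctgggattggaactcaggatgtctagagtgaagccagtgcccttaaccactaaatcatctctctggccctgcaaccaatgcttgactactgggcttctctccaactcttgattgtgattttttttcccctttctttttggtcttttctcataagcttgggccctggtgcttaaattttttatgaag

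Most of the 784 regions had small peaks. As a measure of level, each peak was given its percentile by pileup (the number of fragments stacked at its summit) within its own library, and a region without a peak was given 0. The mean percentile over the 0h and 24h libraries ranged from 2.58 to 93.2, with a median of 22.6. Only 101 of the regions (12.9%) had a mean above the 50th percentile, against 62.1% of all regions called at 0h and 24h. Their called peaks at 0h and 24h had a median pileup of 26 fragments, against 73 fragments in regions that were also called in 3 of 3 ERKi 24h libraries. At the local background of the regions' 24h peaks, a median of 4.31 fragments, 12 or 13 fragments were needed for a call in any library. How much signal was left below this limit in the ERKi 24h libraries is not given by the lists. The uniform background that the peak caller assigned lay between 2.37 and 3.43 fragments over all libraries, and the ERKi 24h libraries, at 2.89 to 3.16, lay inside this range.

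The number of libraries calling a region varied. All 3 libraries at both 0h and 24h called 239 of the regions, which had a median mean percentile of 34.8, and only 2 of 3 at both times called 199, with a median of 13.0. Just outside the limits of the rule, 1129 regions were called in 1 of 3 ERKi 24h libraries, with a median mean percentile of 23.4 and a pileup of 20 fragments in the ERKi 24h library that called them. A further 389 regions were called in 1 of 3 libraries at 0h in place of 2, and 790 in 1 of 3 at 24h, with medians of 10.1 and 10.6. At the ERKi 24h limit the levels on both sides were thus similar and low, with a median of 22.6 for the 784 regions. Just outside the 0h and 24h limits the medians were lower. A library without a peak counts as 0 in this mean, so fewer calls lower it. Between 0h and 24h, the mean percentile was higher at 24h in 333 regions and lower in 451, with a median difference of -2.54.

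The 4h and ERKi 4h libraries, which had no part in the choice, give the values at the earlier time. Of the 784 regions, 57.4%, 64.0% and 82.7% were called in the 3 libraries at 4h, and 33.9%, 42.3% and 46.3% in the 3 at ERKi 4h. The mean was 68.0% ± 13.1 (SD, n = 3) at 4h and 40.9% ± 6.32 (SD, n = 3) at ERKi 4h, and every 4h library was above every ERKi 4h library. Within the replicate numbers 1, 2 and 3, the 4h library called 23.5, 21.7 and 36.4 percentage points more of the regions. Without ERKi 4h replicate 1, the library with the number out of order, the difference of the means was 23.8 points instead of 27.2. Over all 89050 regions the same libraries called nearly equal shares, 49.96% at 4h and 50.9% at ERKi 4h, and over the regions called at 0h and 24h they called 95.8% and 94.7%.

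The counterpart with the treatments exchanged is a set of 1033 regions, called in at least 2 of 3 libraries at 0h, likewise at ERKi 24h, and in none at 24h. They were 2.86% of the 36080 regions called at 0h and ERKi 24h, against 2.21% for the 784. With every choice of conditions in the 3 places of the rule, the share ranged from 0.584% to 14.2%. Of the 1033 regions, 51.2%, 57.2% and 84.0% were called in the libraries at 4h (mean 64.1%) and 74.1%, 72.4% and 90.8% at ERKi 4h (mean 79.1%). The groups overlapped, unlike those of the 784 regions, and the ERKi 4h library called more in each of the 3 replicate numbers.

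**Figure D1:**
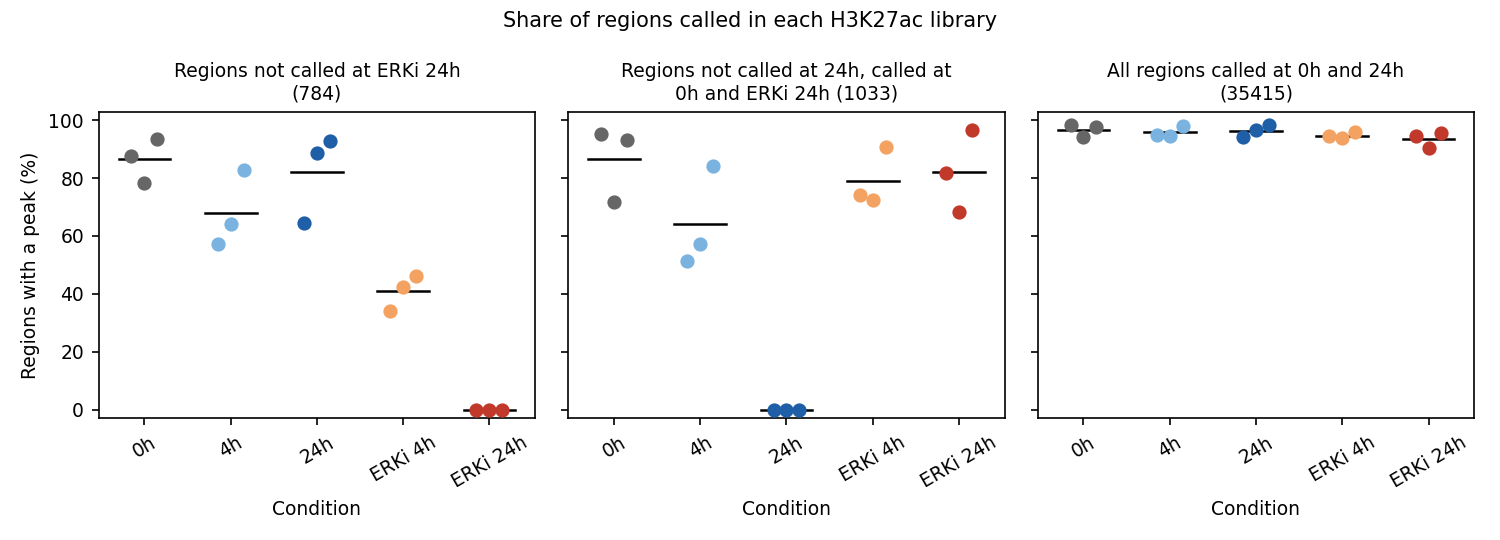
Percent of regions with a peak in each H3K27ac library (points, 3 per condition; bars are means), for the 784 regions, for the 1033 regions not called at 24h, and for all 35415 regions called at 0h and 24h. The mean for the 784 regions was 68.0% at 4h and 40.9% at ERKi 4h, while the last set stayed above 90% in every library.

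Region by region, the level at 4h was above that at ERKi 4h in every library in 167 of the 784 regions (21.3%) and below it in every library in 4. Over the 62300 regions with a peak in any of these 6 libraries, 3.52% were above and 3.68% below, and of the regions called at 0h and 24h, 5.25% were above. Of the 784 regions, 71 were called in all 3 libraries at 4h and in no library at ERKi 4h (9.06%, against 0.449% of the 62300 regions), and 1 was called the other way round. The mean percentile was higher at 4h in 583 regions, lower in 157 and equal, with no peak in either, in 44. The median difference, 4h minus ERKi 4h, was +6.52 percentiles over the 784 regions and -0.58 over the regions called at 0h and 24h. With 3 libraries against 3 the exact permutation test cannot go below 0.1 (two-sided), so no single region passed the threshold of 0.05, and the lowest Benjamini-Hochberg adjusted p was 1. The replicate numbers were taken to pair the libraries, but the permutation test and the counts above treat them as unpaired. With the replicate number as a block, 231 of the regions (29.5%) were higher at 4h in each of the 3 pairs and 19 (2.42%) lower, against 11.3% higher and 16.9% lower of the 62300 regions, and 17.4% higher and 23.6% lower of the regions called at 0h and 24h. Without ERKi 4h replicate 1, 174 regions (22.2%) were above in every library and 14 below, and the median difference was 5.83. In this setting 83 were called in all 4h libraries and neither remaining ERKi 4h library. With fewer libraries the groups separate more easily, and the share over all regions was not computed for this setting.

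The regions differed in how many ERKi 4h libraries called them. No ERKi 4h library called 273 of them, 1 library called 207, 2 libraries called 158 and all 3 libraries called 146. Those with fewer calls at ERKi 4h also had fewer at 4h, where all 3 libraries called 26.0% of the 273 and 75.3% of the 146, and of the 273, 44 were called in no 4h library and 86 in 1. In the 2 ERKi 4h libraries other than replicate 1, neither called 306 of the regions and both called 217. The 146 regions still called in all ERKi 4h libraries had a median mean percentile of 31.8 over 0h and 24h, a median width of 818 bp and lay in promoters in 15.8% of cases. The 273 regions called in none had a median mean percentile of 19.4, a median width of 617 bp and lay in promoters in 5.86%. In the 9 libraries without inhibitor (0h, 4h and 24h), 169 regions were called in all 9, of which 34 were called in no ERKi library at either time and 55 in all 3 ERKi 4h libraries.

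**Figure D2:**
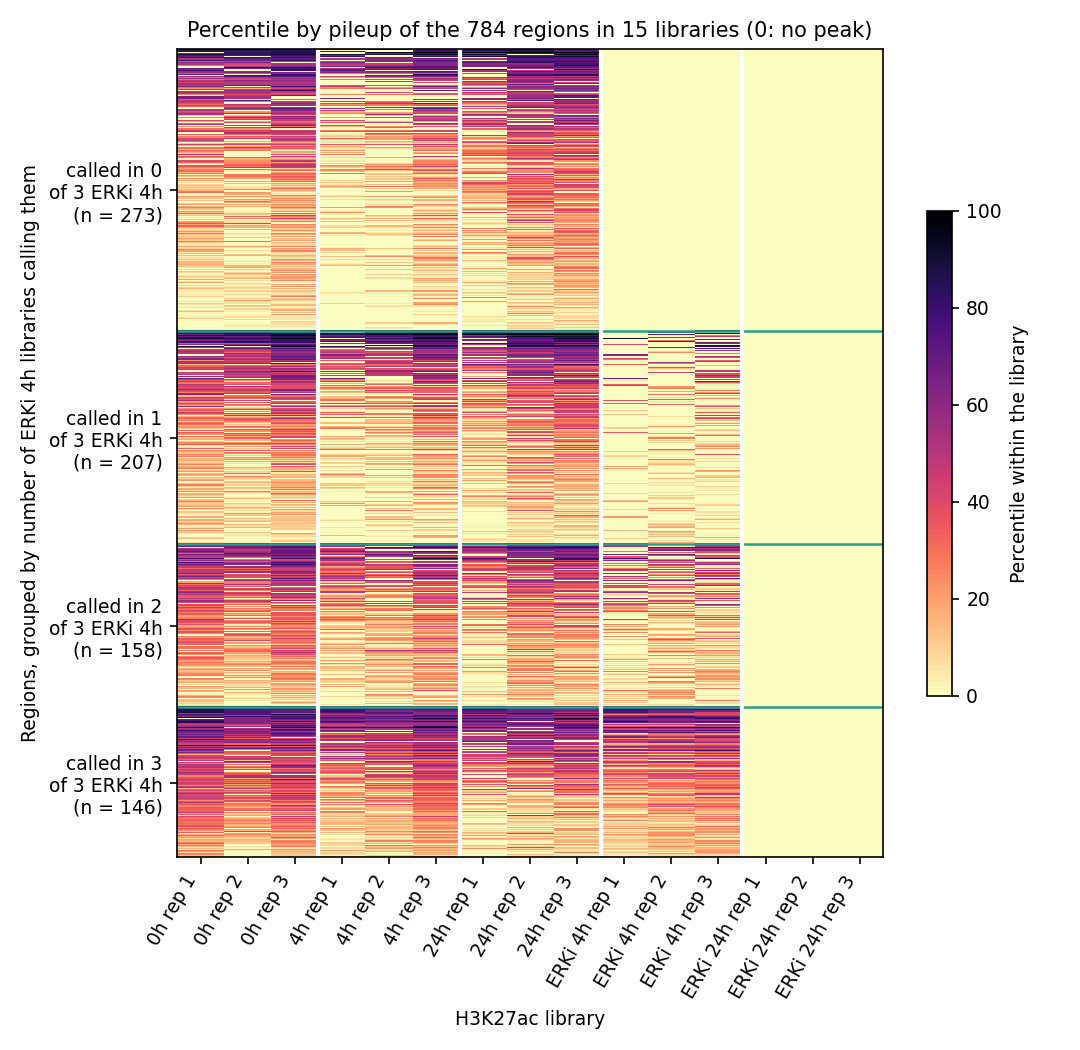
Percentile by pileup of each of the 784 regions (rows) in each of the 15 libraries (columns), on a colour scale from 0 (no peak) to 100, with rows grouped by the number of ERKi 4h libraries that called them and ordered within a group by their mean over 0h and 24h. The ERKi 24h columns are empty by the rule, and the group called in all 3 ERKi 4h libraries holds 146 regions.

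**Figure D3:**
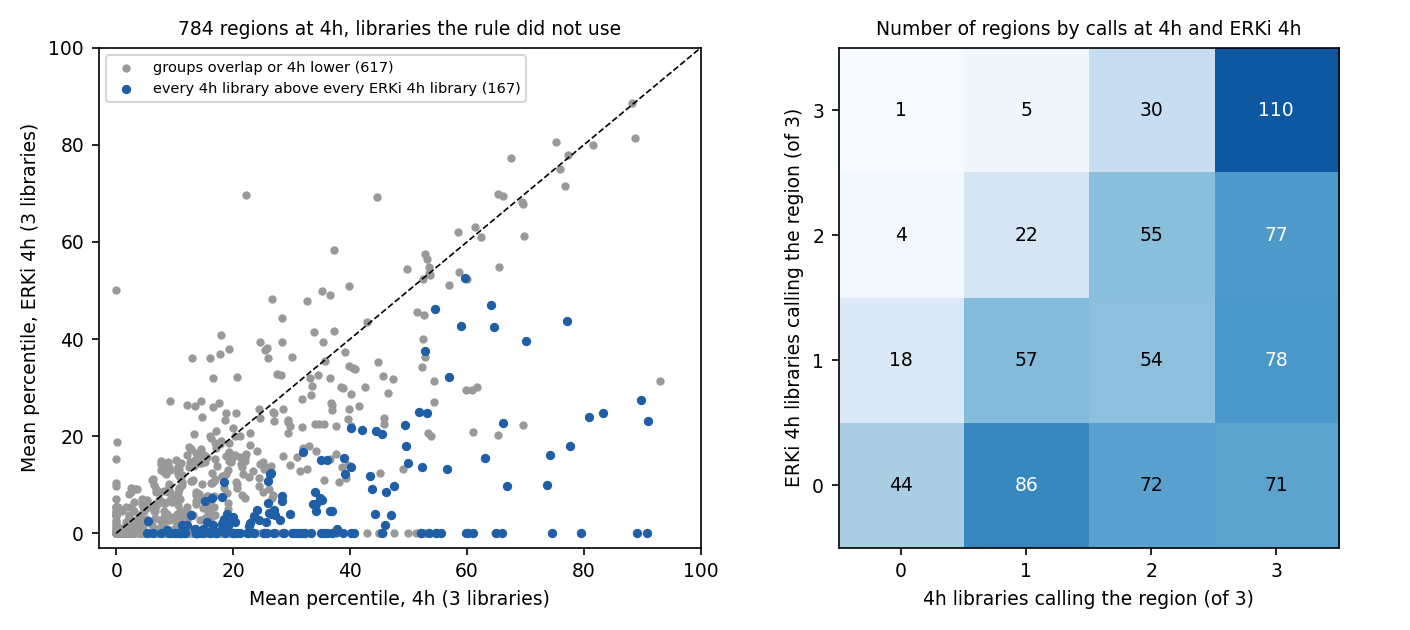
Left, mean percentile by pileup at 4h and ERKi 4h (3 libraries each) for the 784 regions, with the 167 regions whose 4h libraries were all above the ERKi 4h libraries in blue and the dashed line marking equal values. Right, number of regions by how many 4h and ERKi 4h libraries called them, with 71 at 3 and 0 and 1 at 0 and 3.

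The regions differed in their distance from the peaks found at ERKi 24h. The nearest peak of any ERKi 24h library lay at a median of 4331 bp, within 500 bp for 239 regions (30.5%), within 1000 bp for 285 (36.4%) and beyond 10000 bp for 269 (34.3%). The 285 regions within 1000 bp were stronger, with a median mean percentile of 35.8 and 75 regions above the 50th percentile, and narrower, with a median of 547 bp. Of these, 19.3% lay in promoters. The 499 regions farther away had a median mean percentile of 17.9, a median width of 790 bp and lay in promoters in 2.81%, and 26 of them were above the 50th percentile. Of the 285, 190 had such a neighbouring peak in all 3 ERKi 24h libraries, 48 in 2 and 47 in 1. Whether the neighbouring peak kept its level was not tested.

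Both kinds gave like values at 4 hours. Regions beyond 1000 bp were called in 68.2% ± 15.5 of cases at 4h and in 40.5% ± 8.70 at ERKi 4h (SD, n = 3 libraries each), and regions within 1000 bp in 67.7% ± 8.90 and 41.5% ± 4.58. Every 4h library was above every ERKi 4h library in 110 of the 499 and in 57 of the 285.

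**Figure D4:**
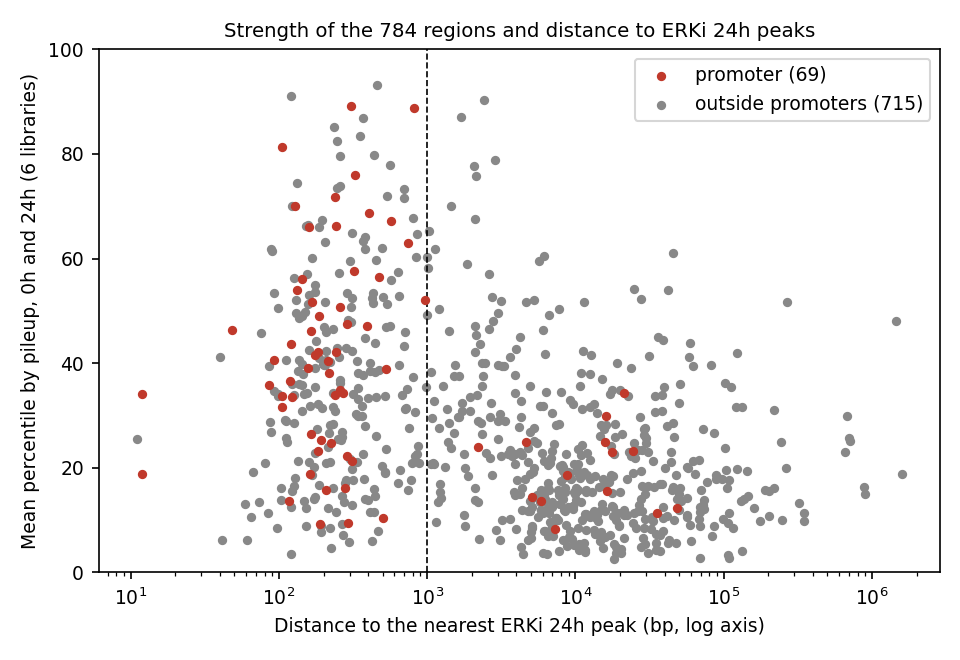
Mean percentile by pileup over the 6 libraries at 0h and 24h against the distance to the nearest ERKi 24h peak in bp (log axis) for the 784 regions, with the 69 in promoters in red and the dashed line at 1000 bp. High values lie mostly left of the line, where 75 regions are above the 50th percentile, against 26 to its right.

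Most regions lay outside promoters. A promoter (1000 bp upstream to 100 bp downstream of a transcript start) held the summit of 69 regions (8.80%, 95% Wilson interval 7.01 to 11.0), an intron that of 41.8%, another exon that of 3.95%, and 45.4% were intergenic. Of all regions 11.7% were in promoters, and of those called at 0h and 24h 21.7%. The median distance to the start of the nearest protein-coding gene was 23496 bp, against 15166 bp over all regions and 7140 bp over those called at 0h and 24h. A neighbour among the 784 lay within 50000 bp of 163 regions (20.8%). They were spread over the genome, with between 0.696% and 1.18% of the regions of each chromosome among them.

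Motifs around the summits were close to those of other regions, apart from a few. The AP-1 sequence TGACTCA was present in 32 regions (4.08%, Wilson interval 2.91 to 5.71), in 3.71% of all regions and in 2.76% of those called at 0h and 24h. In windows of 250 bp on either side, the shares were 15.3%, 17.3% and 14.0%, so that the order of the first and the second turned. The ETS sequence CAGGAAGT was present in 27 regions (3.44%, interval 2.38 to 4.96), against 2.13% of all regions, 1.85% of those called at 0h and 24h, and 1.26% (interval 0.737 to 2.14) of the 1033 regions not called at 24h. In the wider windows the shares were 10.1%, 5.98%, 5.83% and 3.58%, in the same order. The 2380 regions called at 24h but at neither 0h nor ERKi 24h had similar shares, 3.11% and 9.54%, so the share is not particular to the 784. The classical ETS sequence CCGGAAGT was present in 1 region and the CRE, TGACGTCA, in 2.

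The FOX sequence TGTTTAC was present in 3.70% of the 784 regions (2.68% of all regions and 2.17% of those called at 0h and 24h), and the TP63 motif ACATGTC in 3.19% (1.87% and 1.52%). The KLF and SP sequence GGGCGGGG, a letter string of promoters rich in GC, was present in 0.510% of the 784 regions. It was present in 3.40% of those called at 0h and 24h and in 1.87% of all regions. In the 1033 regions not called at 24h and the 2380 called at 24h but at neither 0h nor ERKi 24h, its shares were 0.387% and 0.294%. FOX shares there were 1.74% and 2.18%. TP63 shares there were 2.61% and 2.39%, inside the Wilson interval of the 784 (2.17 to 4.66). The low KLF and SP share and the TP63 share are thus not particular to the 784. The median GC content of the windows was 47.5%, against 49% over all regions. Among the 32 regions with the AP-1 sequence, 2 were above in every library at 4h against ERKi 4h, and among the 27 with CAGGAAGT, 7 were. These are matches of letters in a window, on both strands, and not sites of binding.

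Of 12 gene lists, that of ERK feedback and ETS target genes had the most regions. Its 22 genes were nearest to 10 regions (1.28% of the 784, against 0.426% of the regions called at 0h and 24h and 0.382% of all regions), namely Errfi1, Etv4, Dusp4, Dusp8, Ier3, Spred1, Spry2 and Spry4. All 12 lists together held 50 regions (6.38%, against 4.24% and 4.15%).

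Errfi1 encodes a cytoplasmic inhibitor of the EGF receptor that is induced by receptor signalling. The widest of the 784 regions, 2553 bp at chr4:150154715-150157267, lay 72.8 kb upstream of its start. Its percentile was 60.9, 53.9 and 70.6 at 0h and 51.2, 54.0 and 66.3 at 24h. In the libraries not used for the choice, it was 55.3, 55.8 and 82.8 at 4h and 38.8, 44.0 and 44.6 at ERKi 4h. The ERKi 4h libraries were below all others that called it, and the pileup was 66, 45 and 116 fragments at 4h and 35, 33 and 39 at ERKi 4h. The nearest ERKi 24h peak lay 5.71 kb away, at a neighbouring stretch that kept a peak in all 15 libraries, with percentiles of 55.5, 54.0 and 72.3 at 24h and 25.3, 7.07 and 28.7 at ERKi 24h. A second region lay 45.7 kb upstream, within 176 bp of an ERKi 24h peak. Its percentiles were 40.7, 51.2 and 56.4 at 4h and 3.97, 34.3 and 28.6 at ERKi 4h, again without overlap.

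Etv4 encodes an ETS factor whose transcription is induced by ERK signalling. A region of 1722 bp (chr11:101637961-101639682) lay in an intron, 5.14 kb upstream of the nearest annotated start of the gene. The region was inside the gene, which spans chr11:101631056-101646685. Its percentiles were 53.4, 61.2 and 65.5 at 0h and 51.8, 69.9 and 61.7 at 24h. They were 48.7, 51.2 and 49.98 at 4h and 15.6, 23.4 and 4.56 at ERKi 4h, with no overlap. The neighbouring stretch, 6.09 kb away, was not among the 784, since ERKi 24h libraries called it, and its percentiles were 85.0, 88.1 and 90.2 at 24h, 31.9, 35.8 and 11.7 at ERKi 4h, and 18.4, 15.3 and 0 at ERKi 24h. At ERKi 4h both stretches were lower in every library than at 0h, 4h or 24h. A second, weak region of Etv4 lay 54.1 kb upstream, with percentiles of 0, 18.4 and 4.30 at 4h and 0, 21.2 and 4.56 at ERKi 4h, which overlap.

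Dusp4 encodes a nuclear phosphatase of MAP kinases. The region with the highest mean percentile among the 69 in promoters lay 359 bp upstream of its start (chr8:35869776-35870154), with percentiles of 81.5, 90.6 and 87.9 at 0h, and 91.2, 90.8 and 93.2 at 24h. At 4h it had 0, 90.9 and 91.9 and at ERKi 4h 0, 88.7 and 0, so the groups overlapped. It was 379 bp wide, and a large peak 304 bp away was called in every library, including those at ERKi 24h. The highest percentile in that neighbouring stretch was 98.5, 98.0 and 98.0 at 24h and 99.4, 99.2 and 98.6 at ERKi 24h, so it was not lower with the inhibitor. The region called at this promoter was thus a narrow one beside a larger peak. It was not a weak one, with 122 to 177 fragments in the 0h and 24h libraries. For Dusp8, another phosphatase of the family, a region 3.05 kb upstream of the nearest annotated start lay in an exon inside the gene. It had 45.3, 50.2 and 64.3 at 4h and 0, 61.9 and 0 at ERKi 4h.

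The region near Ier3, an immediate-early gene, lay 22.1 kb upstream and had percentiles of 68.4, 74.7 and 80.4 at 4h and 0 in all 3 libraries at ERKi 4h, but it lay 424 bp from an ERKi 24h peak. Regions of the Sprouty and Spred genes were weak. Spred1, 102.3 kb upstream, had 8.75, 10.6 and 6.70 at 4h and 0, 0.987 and 6.92 at ERKi 4h, which overlap. Spry2 and Spry4, with regions 92.6 kb and 8.53 kb downstream, overlapped as well. Of the 10 regions of this list, 4 lay more than 1000 bp from any ERKi 24h peak.

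**Figure D5:**
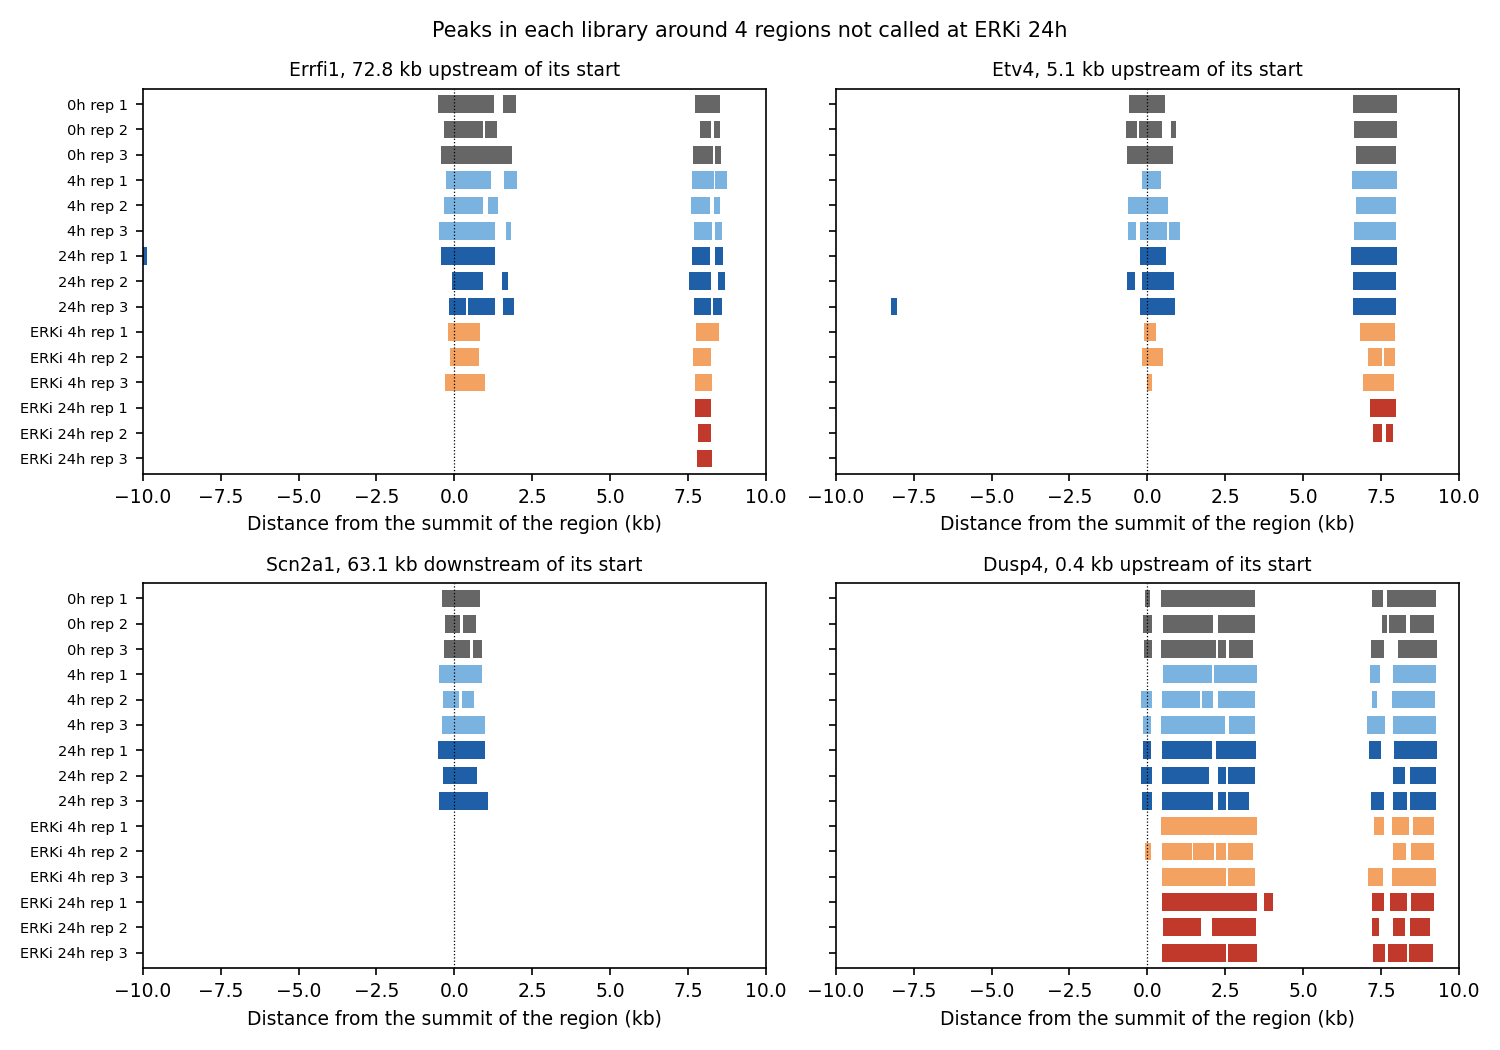
Peaks called in each of the 15 libraries (rows, bars coloured by condition) within 10 kb on either side of the summit of 4 of the regions, with distance from the summit in kb. The regions of Errfi1, Etv4 and Scn2a1 stand apart from the peaks left at ERKi 24h, which lie 5.71, 6.09 and 45.8 kb away, whereas that of Dusp4 lies 304 bp from a large peak.

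The 22 AP-1 and immediate-early genes were nearest to 7 regions (0.893%, against 0.536% of the regions called at 0h and 24h), 4 of them of Myc, the growth-promoting transcription factor. The strongest Myc region lay 453.4 kb upstream in intergenic sequence. Its percentiles were 83.5, 91.9 and 95.5 at 0h and 90.2, 92.4 and 93.0 at 24h. They were 78.7, 75.2 and 88.5 at 4h and 0, 71.9 and 0 at ERKi 4h. All 4h libraries were above the ERKi 4h libraries, yet an ERKi 24h peak lay 120 bp from its edge. The Myc region 503.0 kb upstream (chr15:61313167-61314402) stood 18.5 kb from such a peak, and was called in all 9 libraries without inhibitor, at percentiles of 8.75 to 36.8, and in no ERKi library. The other genes of this list were Ier5, Jun and Klf6. Ier5 had 34.6, 49.2 and 58.9 at 4h and 0, 29.2 and 0 at ERKi 4h, 85.3 kb downstream of its start and 11.3 kb from an ERKi 24h peak. Jun, with a region 5.69 kb upstream, had 0, 0 and 43.3 at 4h and 0, 44.0 and 37.5 at ERKi 4h, which overlap.

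The list of EGF family ligands and ErbB receptors held 3 regions (0.383%, against 0.186% of the regions called at 0h and 24h and 0.184% of all regions). Epgn and Tgfa, ligands of the EGF receptor, and Erbb4, a receptor of the family, were nearest to 1 region each. Epgn had 0, 0 and 54.4 at 4h and 0, 0 and 35.1 at ERKi 4h, and the other two were called in 1 library at 4h each. Epha4 was nearest to the only region of the list of other receptor tyrosine kinases (0.128%, against 0.333% of the regions called at 0h and 24h). Of the cascade itself (0.255%, against 0.254%), Map3k5, a stress-activated kinase, and Map2k1, which encodes MEK, were nearest to 1 region each, and no gene of the list of RUNX and ETS factors was.

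TGF-β and BMP pathway genes were nearest to 5 regions (0.638%, against 0.565% of the regions called at 0h and 24h), 4 of them of Smad3, the transcription factor that TGF-β receptors phosphorylate. In the region 4.78 kb upstream of a Smad3 start (chr9:63564350-63564658), the percentiles were 60.4, 58.3 and 64.3 at 4h and 0 in all ERKi 4h libraries. In that 4.13 kb upstream, they were 55.9, 55.8 and 65.3 at 4h and 43.6, 32.7 and 51.8 at ERKi 4h. These neighbours did not overlap between the groups and lay 4.65 and 5.27 kb from an ERKi 24h peak. The other 2 regions, in introns 10.9 and 12.5 kb upstream of another annotated start, overlapped between 4h and ERKi 4h. Smad3 spans chr9:63494574-63605801, so these 2 regions and that at chr9:63564350-63564658 lay inside the gene. At the promoter of Tgif1, a corepressor of Smad proteins, the percentiles were 86.9, 88.6 and 93.9 at 4h and 0, 0 and 82.6 at ERKi 4h, 810 bp from an ERKi 24h peak.

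Epithelial and mesenchymal genes were both present. The list of junction, polarity and keratin genes had 6 regions (0.765%, against 0.446% of the regions called at 0h and 24h), 4 of them of Pard3, a scaffold of tight junctions and cell polarity. The intronic region 1.21 kb downstream of the start of Cdh1, the gene of E-cadherin, had 73.9, 72.6 and 79.0 at 0h and 64.2, 71.6 and 70.9 at 24h, and was called in 2 of 3 libraries at 4h and in none at ERKi 4h. It lay 532 bp from an ERKi 24h peak, and the promoter of Cdh1 kept its peak in all libraries. Pard3 regions were weak, with means over 0h and 24h of 24.0 or less. The list of epithelial transcription factors had 3 regions (0.383%, against 0.277% of the regions called at 0h and 24h and 0.301% of all regions). They were 1 each at Id2, Gata3 and Trp63, and the last 2 lay 91.9 and 25.3 kb from an ERKi 24h peak.

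The EMT and mesenchymal list had 5 regions (0.638%, against 0.466% of the regions called at 0h and 24h). Both Prrx1 regions, 3.34 and 2.74 kb upstream of a start of this mesenchymal homeobox gene, lay over 88 kb from an ERKi 24h peak. In the second the percentiles were 6.69, 10.6 and 15.8 at 4h and 0 in all ERKi 4h libraries. Tnc, the gene of the matrix protein tenascin C, had 2 and Jag1, a Notch ligand, 1. The YAP-TEAD list had 5 regions (0.638%, against 0.226% of the regions called at 0h and 24h and 0.203% of all regions), 3 of them of Tead1, a DNA-binding partner of YAP, and that 71.5 kb downstream of its start had 57.4, 57.5 and 65.8 at 4h and 0 at ERKi 4h, 93 bp from an ERKi 24h peak. The cell cycle list had 3 regions (0.383%, against 0.246% of the regions called at 0h and 24h and 0.216% of all regions). The one 2.20 kb upstream of Ccnd1, the gene of cyclin D, had 76.8, 0 and 81.6 at 4h and 0 at ERKi 4h, 438 bp from an ERKi 24h peak. That in the promoter of Ccnd1 had 79.1, 0 and 84.2 at 4h and 0, 0 and 81.3 at ERKi 4h. The Cdk6 region had 37.3, 60.6 and 58.9 at 4h and 0, 50.9 and 51.8 at ERKi 4h. In all 3 the groups overlapped.

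The 12 strongest of the 34 regions called in all libraries without inhibitor and in no ERKi library were nearest to D15Ertd621e, Dagla, Map3k5, Nol10, Scn2a1, Asap1, 2610203C20Rik, Olfr65, Cdk20, Dbc1, Ism1 and Gm10530. None was in a promoter, 8 were in introns and 4 were intergenic, and 7 lay within 1000 bp of an ERKi 24h peak. The other 5 stood apart. At D15Ertd621e, 5.67 kb upstream, the pileup was 241, 165 and 181 fragments at 0h, 171, 115 and 175 at 4h and 109, 111 and 143 at 24h, the highest levels among these 5. At Scn2a1, the gene of a voltage-gated sodium channel, a region in an intron 63.1 kb downstream of the start (chr2:65582935-65584533) had 37, 37 and 43 fragments at 0h, 48, 44 and 71 at 4h and 91, 87 and 117 at 24h. It thus was higher in every 24h library than in every 0h library, and no ERKi 24h peak lay within 45.8 kb.

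At Olfr65, an odorant receptor gene, the region lay 266.3 kb and at Dbc1 1455 kb from the nearest ERKi 24h peak. The pileup at Dbc1 was 30, 32 and 45 fragments at 0h, 31, 32 and 49 at 4h and 43, 50 and 66 at 24h. At Gm10530 the distance was 59.3 kb. The nearest gene is here a label of position only, since no expression was measured in these files.

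After Dusp4 and Tgif1, the strongest promoter regions were those of 8430406I07Rik, Myo10 and Kntc1. All 5 lay within 1000 bp of an ERKi 24h peak. Myo10, an unconventional myosin of filopodia, had 69.2, 69.6 and 71.6 at 4h and 61.0, 0 and 57.7 at ERKi 4h, with no overlap. Kntc1, a kinetochore protein, had 79.3, 62.7 and 66.4 at 4h and 74.1, 66.3 and 64.2 at ERKi 4h, and 8430406I07Rik 79.1, 72.8 and 76.0 and 82.6, 74.2 and 68.3, and both overlapped.

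The 784 regions had 684 nearest genes, of which 600 had 1 region, 72 had 2, 8 had 3 and 4 had 4. The 4 genes with 4 regions were Myc, Pard3, Smad3 and Wwox, nearest to 45, 17, 22 and 15 of the regions called at 0h and 24h. Those with 3 were Csf2, Gm16496, Ifltd1, Iigp1, Rbpj, Rgnef, Tead1 and Zfp658. In this order they were nearest to 7, 7, 5, 3, 15, 14, 27 and 4 regions called at 0h and 24h. Wwox, a tumour suppressor with an oxidoreductase domain, had 48.7, 60.6 and 61.4 at 4h and 26.3, 32.7 and 37.5 at ERKi 4h in its strongest region, without overlap. Csf2 encodes the cytokine GM-CSF. Its strongest region, 480 bp downstream of its start, had 27.4, 36.8 and 51.5 at 4h and 0, 29.2 and 11.7 at ERKi 4h, which overlap, and the region with CAGGAAGT shown above was weaker, at 0, 0 and 2.30 and at 0 in all ERKi 4h libraries. Of Ifltd1, the region with the AP-1 sequence shown had 0, 16.0 and 37.4 at 4h and 0 at ERKi 4h, and of Rgnef, the region with CCGGAAGT had 4.65, 10.6 and 17.8 at 4h and 1.96, 34.3 and 6.92 at ERKi 4h. All 3 Iigp1 regions, near a gene of an interferon-induced GTPase, lay over 86 kb from an ERKi 24h peak, and the strongest was called in all 9 libraries without inhibitor and in no ERKi library.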

How the data were processed

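H3K27ac ChIP-seq peak lists of 15 libraries were used, and the 10 RNA-seq and 3 input samples were not analysed here. For each library, the authors mapped reads by Bowtie (mm9) and found peaks by MACS2, both with default parameters. The deposited columns hold the fold enrichment at the summit (a ratio to local background), -log10 p and -log10 q. The deposited score, a rounded form of -log10 q, was left out. The deposited lists hold no read totals, so depth is unknown and 3 libraries per condition set the precision.

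Whole pileups were solved from fold and p for 893694 of 893719 peaks (tolerance 0.005 on the -log10 p scale). Peaks overlapping by at least 1 bp were merged, and the level of a region was the percentile by pileup of its highest peak. Genes were taken from GENCODE vM1, sequences from NCBIM37 (mm9), and motifs were sought within 100 bp of the summit. Distances are to the nearest transcript start of a protein-coding gene, so a region upstream of a start can lie inside the gene. The sequence of 1 named region is not reported here. The single-region test was the exact permutation test without pairing (SciPy 1.17.1, pandas 2.3.3), adjusted over 62300 regions. Statements that groups of a named region do or do not overlap also leave the pairing out. Scripts were tested on simulated data.

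Libraries of the same replicate number deviated together from their condition means in percentile (correlation above 0.1 in 30 of 30 pairs, mean 0.290, and in 3 of 3 pairs of 4h and ERKi 4h, mean 0.400). By peak calls the correlation was above 0.1 in only 16 of 30 pairs, and in 3 of 3 pairs of 4h and ERKi 4h. The numbers were taken to pair the libraries. Nothing in the sources used here says whether replicates were separate cultures, so the spread may be technical. The text names the 12 strongest regions called in all libraries without inhibitor and in no ERKi library, the 5 strongest in promoters, genes with at least 3 regions, and regions of 12 gene lists of 259 genes, 255 of them in the annotation. The regions, lists and tests were chosen with earlier results of these data known. Alternatives were other thresholds, merging distances, coverages, measures, leaving out each library, and, added after seeing the data, regions over 1000 bp from ERKi 24h peaks.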

Additional observations from a re-analysis of the deposited data

How the results depend on the processing

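The higher share of the regions called at 4h than at ERKi 4h and the positive median difference kept their direction under every alternative run. The difference in the share called ranged from 19.5 to 32.5 percentage points, and the median difference from 2.48 to 8.67 percentiles, when each of the 15 libraries was left out. The number of regions was less stable, at 419 to 1463 with a library left out. It was 522 without 0h replicate 3, 452 without 24h replicate 2, 419 without 24h replicate 3 and 1463 without ERKi 24h replicate 3, so single libraries decide which regions pass. The regions above in every library at 4h numbered 116 to 269, out of totals that also changed. They were 116 of 419 (27.7%) without 24h replicate 3 and 269 of 788 (34.1%) without 4h replicate 1. The share over all regions was not computed with a library left out. The share in promoters ranged from 6.71% to 13.0% and that with the AP-1 sequence from 2.86% to 4.87%, over the same settings.

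Merging peaks within 1000 bp left 491 regions, 107 of them above in every library at 4h and 3.05% in promoters. The regions over 1000 bp from ERKi 24h peaks numbered 499, with 110 above and 2.81% in promoters. Taking only the 40000 peaks of lowest p per library gave 861 regions, of which 258 (30.0%) were above in every library and 4 below. The share over all regions was not computed at this threshold. Requiring peaks to cover at least 0.5 of a region gave a median difference of 11.8 percentiles, 12.6% in promoters and 2.82% with AP-1. Promoters of 2500 bp on either side held 18.2%, and windows of 250 bp held AP-1 in 15.3%. With the replicate number as a block, 231 regions were above in each pair and the median difference was 6.52. Wider windows and promoters take in more sequence, and merging removes regions beside ERKi 24h peaks. The cause of the other shifts was not tested. The lists hold no depth.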
